A study of Homo sapiens with 2 samples.

Results

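The genes described here encode the retrotranslocation machinery of endoplasmic reticulum-associated degradation (ERAD) and the mannosidase-like EDEM proteins that feed it. They are HERPUD1, SEL1L, SYVN1, OS9, EDEM1, EDEM2, EDEM3, DERL1, DERL2 and DERL3, which make up 10 of the 25277 rows listed in each of the 2 gene tables. Rows were matched by gene symbol, and the gene group itself was chosen on the ratio of FPKM between these same 2 samples, since members such as HERPUD1 had already been seen among the large differences. The values below are therefore a description, and no test was made on them. FPKM is a fragment count scaled for exon length and for the fragments mapped in the sample, so levels of different genes can be set side by side.

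Poly(A) mRNA was sequenced from HEK293 cells, a human embryonic kidney line, of the genotypes WT (wild-type) and PERK-KO, with 1 sample of each. Both were kept for 12 h in glucose-free medium with pyruvate and galactose, which makes cells depend on oxidative phosphorylation (OXPHOS), and glucose-grown cells were not analysed here. PERK-KO cells were made with CRISPR/Cas9 guides against PERK, and single cells were then seeded and screened by immunoblotting, so that genotype and clone cannot be told apart. Without replicates, the only error available is the pair of confidence limits deposited with each FPKM. The limits cover error in counting and assigning fragments within 1 library and say nothing of how cultures vary.

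ERAD removes misfolded proteins from the endoplasmic reticulum (ER). EDEM proteins trim mannose from N-glycans of such clients, the lectin OS9 reads the trimmed glycans and passes the client to SEL1L, and SYVN1 (HRD1), a membrane ubiquitin ligase held by SEL1L, forms the exit path together with derlins and HERPUD1. On the cytosolic side the client is ubiquitinated, pulled out by the p97 ATPase and degraded by the proteasome. Several of these genes are textbook targets of the unfolded protein response, whose sensors are PERK, IRE1 and ATF6. XBP1 and ATF6 act through the ER stress elements of promoters, whereas ATF4, translated when PERK phosphorylates eIF2α, acts through a different element.

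PERK is encoded by EIF2AK3 on chromosome 2. Its FPKM was 5.61 in WT (confidence limits 5.11 to 6.12) and 3.89 in PERK-KO cells (3.44 to 4.34). The ratio of PERK-KO over WT was 0.693, and the limits did not overlap. Transcript from the targeted gene was thus still counted in the PERK-KO sample, and FPKM does not show whether it encodes a full-length protein. Of 5 genes listed as HEK293 markers, IRS4, PAX2, NEFM and INA had an FPKM under 1 in WT cells, and only PAX2 did in PERK-KO cells. The difference was widest for IRS4, at 0.121 in WT and 27.1 in PERK-KO cells, while NEFL was present in both, at 44.9 and 33.4. Of 8 markers of liver, blood, fibroblasts, keratinocytes and endothelium, 6 were under 1 in both samples, the exceptions being COL1A1 (4.97 and 4.62) and CD34 (0.923 and 1.03). The part of such differences between the lines in the results below was not tested.

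The members separated into those with ratios above 2 and those close to WT. HERPUD1, SYVN1, SEL1L, EDEM1 and EDEM3 had ratios from 2.08 to 4.41, whereas DERL3, EDEM2, DERL2, DERL1 and OS9 lay between 0.869 and 1.32. No member fell between 1.32 and 2.08. All 10 members passed the filter, which kept genes reaching an FPKM of 1 in either sample. With a threshold of 1.5-fold, 5 of 10 members were higher in PERK-KO cells and 0 were lower, against 10.1% and 7.54% of all 14594 genes that passed the filter. At 2-fold it was again 5 members, against 3.28% of all genes. Because the group was chosen on this contrast, nothing is read from these shares. In bulk RNA, more transcript in each cell and a larger share of cells with the transcript cannot be told apart.

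**Figure D1:**
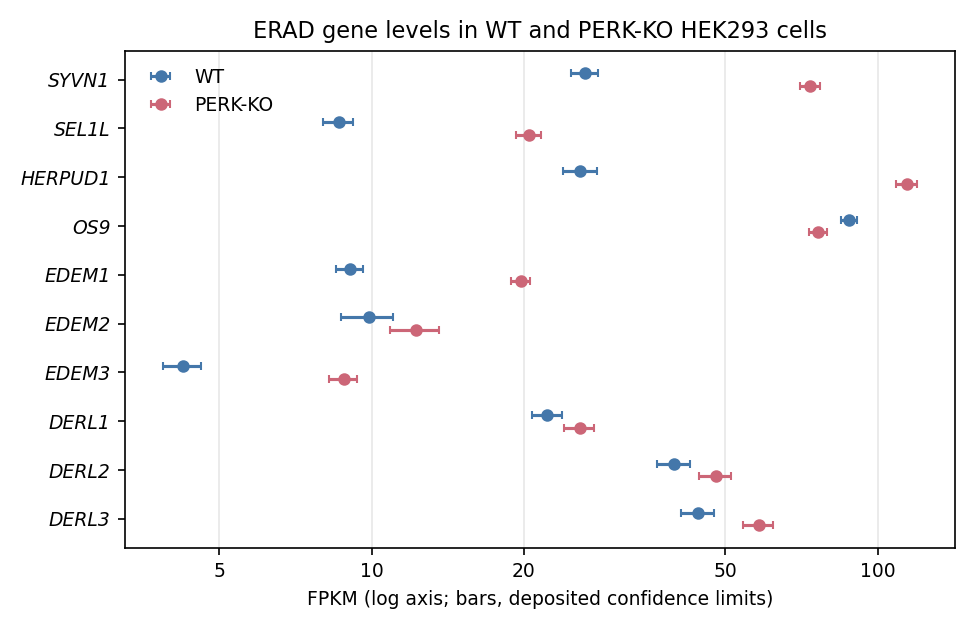
FPKM of the 10 ERAD genes (log axis) in WT (blue) and PERK-KO (red) HEK293 cells, 1 sample each, with bars for the deposited confidence limits. SYVN1, SEL1L, HERPUD1, EDEM1 and EDEM3 lie well to the right in PERK-KO cells. For each derlin and for EDEM2 the WT and PERK-KO points lie close together, and OS9 is the only gene to the left, at 76.2 against 87.8.

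The ligase and its partners were examined first. SYVN1, on chromosome 11 from 64894751 to 64902003 (GRCh37), encodes the ubiquitin ligase HRD1. It had an FPKM of 26.4 in WT (limits 24.7 to 28.1) and 73.5 in PERK-KO cells (70.3 to 76.7). The ratio was 2.78, and the lowest and highest ratios that the limits allow were 2.50 and 3.10. The limits of the 2 samples were far apart. Its locus shares 91 bases with that of MRPL49, a mitochondrial ribosomal protein gene, whose ratio was 1.29.

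SEL1L, on chromosome 14 from 81937891 to 82000205, encodes the adaptor that stabilises HRD1. It had an FPKM of 8.62 in WT (8.02 to 9.21) and 20.5 in PERK-KO cells (19.3 to 21.6), and the ratio was 2.38 with bounds of 2.10 to 2.70. The level of SYVN1 was 3.07 times that of SEL1L in WT (2.69 to 3.50) and 3.59 times in PERK-KO cells (3.25 to 3.97), and these ranges overlapped. The bounds of the ratios of the ligase and its adaptor overlapped as well, which does not show that these ratios were equal. Relative to genes of similar transcript length, as described below, the log2 ratios were 1.42 for SYVN1 and 0.92 for SEL1L.

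HERPUD1, on chromosome 16 from 56965748 to 56977793, encodes a short-lived ubiquitin-like domain protein of the ER membrane that joins HRD1 complexes. Its FPKM was 25.9 in WT (23.9 to 27.8) and 114 in PERK-KO cells (108 to 120). The ratio of 4.41 (bounds 3.89 to 5.01) was the largest among the members, and its bounds overlapped those of no other member. The level of HERPUD1 was 0.979 times that of SYVN1 in WT (0.851 to 1.13), where their limits overlapped, and 1.55 times in PERK-KO cells (1.41 to 1.70). Of the summed difference in FPKM over the 10 genes, 49.2% came from HERPUD1 and 26.3% from SYVN1.

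OS9, on chromosome 12 from 58087738 to 58115340, encodes the lectin that hands glycoproteins with trimmed glycans to SEL1L. Its FPKM was 87.8 in WT (84.6 to 91.0) and 76.2 in PERK-KO cells (73.3 to 79.2), giving a ratio of 0.869 (0.806 to 0.937). OS9 was the only member that was lower in PERK-KO cells, and its limits did not overlap although the difference was far from 1.5-fold. With SEL1L higher and OS9 slightly lower, OS9 went from 10.2 times the level of SEL1L in WT (9.18 to 11.3) to 3.73 times in PERK-KO cells (3.39 to 4.10). These relative levels were not adjusted for transcript length, which is taken up below. In the sum of all 10 members, the share of OS9 was 31.6% in WT and 16.7% in PERK-KO cells, while that of HERPUD1 was 9.31% and 25.0%. ERLEC1, the other lectin of this kind, which is named here after its values had been seen, had 26.4 (24.7 to 28.1) and 38.7 (36.2 to 41.1), a ratio of 1.46, so the 2 lectins lay on opposite sides of 1.

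The EDEM genes differed from one another. EDEM1, on chromosome 3 from 5229359 to 5261650, had an FPKM of 9.08 in WT (8.53 to 9.63) and 19.7 in PERK-KO cells (18.8 to 20.6), giving a ratio of 2.17 (1.96 to 2.41). For EDEM3, on chromosome 1 from 184659625 to 184724041, FPKM was 4.24 (3.87 to 4.60) and 8.82 (8.26 to 9.38), giving a ratio of 2.08 (1.79 to 2.42). The bounds of these 2 ratios overlapped. EDEM2, on chromosome 20 from 33703160 to 33735161, had 9.87 in WT (8.71 to 11.0) and 12.2 in PERK-KO cells (10.9 to 13.6). It was the only member whose limits overlapped between the samples, and its ratio of 1.24 had bounds from 0.984 to 1.56, all below the lower bounds of EDEM1 and EDEM3. EDEM2 also had the widest limits relative to its level, and their overlap does not show that its level was the same in both samples.

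In WT cells the limits of EDEM2 and EDEM1 overlapped. Their shares of the summed FPKM of the family were 42.6% and 39.2%, with 18.3% for EDEM3. In PERK-KO cells EDEM1 took 48.4%, EDEM2 30.0% and EDEM3 21.6%. The sum over the family was 23.2 in WT and 40.8 in PERK-KO cells, a ratio of 1.76.

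Derlins are rhomboid-like membrane proteins without protease activity that line the exit path next to HRD1. DERL2, on chromosome 17 from 5377613 to 5389494, had an FPKM of 39.6 in WT (36.7 to 42.5) and 47.8 in PERK-KO cells (44.4 to 51.3), giving a ratio of 1.21 (1.04 to 1.40). DERL1, on chromosome 8 from 124025404 to 124054663, was at 22.3 (20.7 to 23.8) and 25.8 (24.0 to 27.5), giving a ratio of 1.16 (1.01 to 1.33). DERL3, on chromosome 22 from 24176690 to 24181199, was at 44.1 (40.8 to 47.4) and 58.1 (54.1 to 62.2), giving a ratio of 1.32 (1.14 to 1.52).

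For each derlin the limits of the samples did not overlap, by a narrow margin in DERL1, and the bounds of the 3 ratios overlapped one another. The composition of the family was nearly the same in both samples. DERL3 made up 41.6% of it in WT and 44.1% in PERK-KO cells, DERL2 37.4% and 36.3%, and DERL1 21.0% and 19.6%. The summed FPKM was 106 and 132, a ratio of 1.24. The DERL3 locus shares 16 bases with that of SMARCB1, a chromatin remodelling gene, and no source used here states that strand was kept in the counting. SMARCB1 had 93.7 (89.2 to 98.1) and 122 (117 to 128), a ratio of 1.31 that is close to that of DERL3, and the part of SMARCB1 reads in the DERL3 values was not tested.

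**Figure D2:**
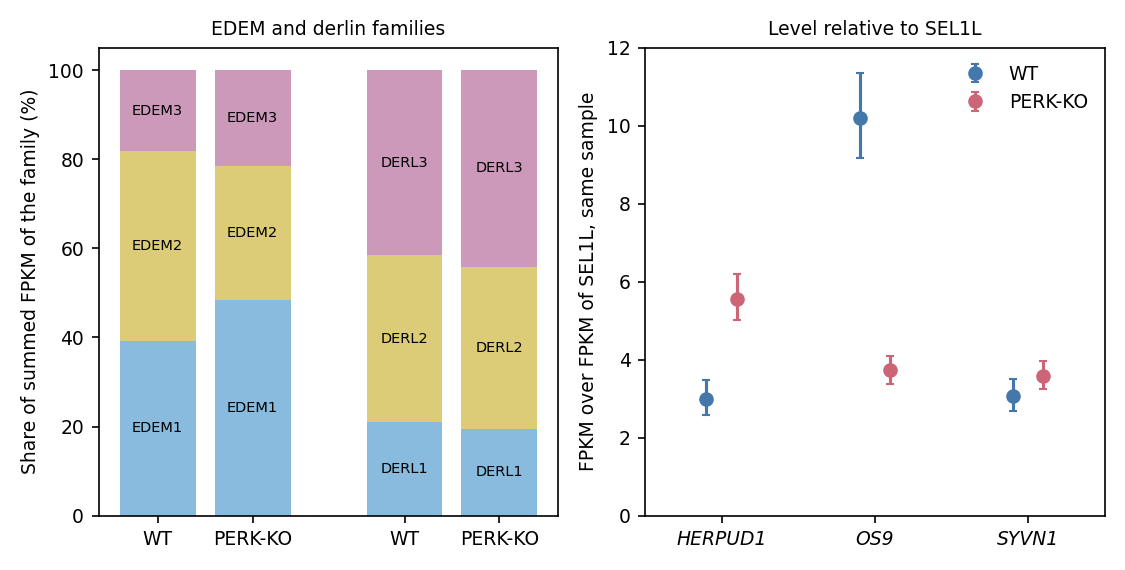
Left, share of each EDEM and DERL gene in the summed FPKM of its family in WT and PERK-KO cells. Right, FPKM of HERPUD1, OS9 and SYVN1 divided by that of SEL1L in the same sample (WT blue, PERK-KO red, bars from the confidence limits). The EDEM1 share is 39.2% and 48.4% while the derlin shares differ by under 3 percentage points, and OS9 over SEL1L is 10.2 and 3.73. Values are shown without regard to transcript length.

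The order of the levels differed between the genotypes. In WT cells OS9 was highest, followed by DERL3, DERL2, SYVN1, HERPUD1, DERL1, EDEM2, EDEM1, SEL1L and EDEM3. Neighbours whose limits overlapped in that order were DERL3 and DERL2, SYVN1 and HERPUD1, EDEM2 and EDEM1, and EDEM1 and SEL1L. In PERK-KO cells HERPUD1 came first, followed by OS9, SYVN1, DERL3, DERL2, DERL1, SEL1L, EDEM1, EDEM2 and EDEM3. There, only OS9 and SYVN1, and SEL1L and EDEM1, overlapped as neighbours. EDEM3 was the lowest member in both samples. Summed over all 10 genes, FPKM was 278 in WT and 457 in PERK-KO cells, a ratio of 1.64, and without OS9 it was 190 and 380.

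Limits that did not overlap between the samples were common in these data, in 44.8% of all genes that passed the filter, and in 26.1% with PERK-KO higher. They were found in 9 of the 10 members, 8 of them higher in PERK-KO cells. The 5 members beyond 1.5-fold all had such limits. Of all genes, 7.9% were higher by over 1.5-fold with limits apart, which is 77.9% of the genes past that threshold. The lowest ratio that the limits allow was above 1.5 in the 5 members and in 2.64% of all genes. The members were chosen on this contrast, so nothing is read from these counts either. Among the 45 pairs of members, the bounds of the ratios did not overlap in 35. HERPUD1 was apart from every other member, and SYVN1, SEL1L, EDEM1 and EDEM3 each overlapped at least one of the others in that group. The bounds of EDEM2 and the 3 derlins all overlapped one another. The median log2 ratio of the members was 0.73, compared with 0.04 for all genes that passed the filter. The value of 0.73 lies in the gap between DERL3 and EDEM3, so no member had a ratio near it.

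**Figure D3:**
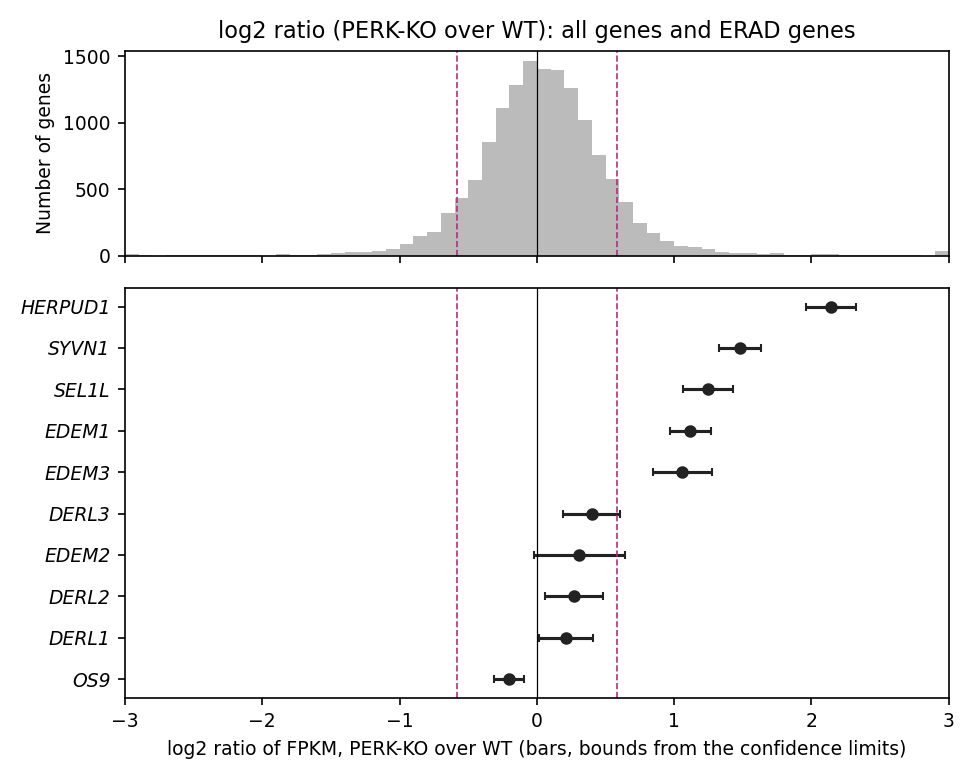
Top, number of genes by log2 ratio of FPKM (PERK-KO over WT) among genes that passed the filter and had no value of 0, with ratios beyond 3 in either direction placed in the end bins. Bottom, log2 ratio of each ERAD gene with the bounds its confidence limits allow; dashed lines mark 1.5-fold. HERPUD1 (2.14), SYVN1 (1.48), SEL1L (1.25), EDEM1 (1.12) and EDEM3 (1.06) lie right of the upper line with their bounds, and OS9 (-0.20) is left of 0.

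The promoters were then searched in the RefSeq table (build GRCh38.p14), which holds 250 bases before and 50 bases after each start site. Of the 10 genes, 8 were matched, and DERL1 and DERL3 were not. Searched on both strands were the ER stress element (CCAAT, 9 bases of any kind, then CCACG), its second form (ATTGG, 1 base of any kind, then CCACG), the unfolded protein response element TGACGTGG and the core of the ATF4 element, TGATGNAA. HERPUD1 was the only member with an exact match to any of them. It held the second form of the ER stress element at positions -117 to -107 relative to the start site, a match found in 0.0541% of all 35116 promoters of the table, and the ATF4 core on the opposite strand at -176 to -169, found in 3.62%. The exact ER stress element was present in 0.0769% of promoters and the unfolded protein response element in 0.729%, and in no member. With 1 mismatch allowed, the first form was found in HERPUD1, SEL1L and SYVN1, against 1.55% of promoters, and the second form in the same 3 genes, against 1.23%.

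These 3 promoters are shown because a form of the ER stress element was found in them, in SEL1L and SYVN1 only with 1 mismatch. Capitals mark the ER stress elements with up to 1 mismatch and the ATF4 core, and each sequence runs 5′ to 3′ along the gene and ends before the start site. The HERPUD1 stretch is chr16:56931946-56932097 on the plus strand, with the reverse complement of the ATF4 core first, the exact second form next and, at -83 to -65, the first form with 1 mismatch. The SEL1L stretch is chr14:81534002-81534080 on the minus strand, with the first form at -207 to -189 and the second form, on the opposite strand, at -179 to -169, each with 1 mismatch. The SYVN1 stretch is chr11:65134615-65134673 on the minus strand, where the first form at -134 to -116 contains the second at -126 to -116, each with 1 mismatch.
HERPUD1: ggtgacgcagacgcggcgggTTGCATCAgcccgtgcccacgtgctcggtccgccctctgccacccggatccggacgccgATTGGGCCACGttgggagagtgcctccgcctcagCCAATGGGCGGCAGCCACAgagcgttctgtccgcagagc
SEL1L: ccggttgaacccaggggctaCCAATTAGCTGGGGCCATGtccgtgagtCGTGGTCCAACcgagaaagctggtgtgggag
SYVN1: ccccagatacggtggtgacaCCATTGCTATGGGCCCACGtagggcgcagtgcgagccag
EDEM1 and EDEM3, which like HERPUD1, SYVN1 and SEL1L were over 2-fold higher, held neither form in this window. Nor did EDEM2, DERL2 and OS9, and a link between matches and ratios was not tested. The only other match with 1 mismatch was to the unfolded protein response element in EDEM3, which at that tolerance is present in 17.2% of promoters. A match describes the reference sequence and shows neither binding nor use.

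Transcript length was set beside the ratios, because the median ratio of all genes differed with length in these samples. The canonical transcripts of the members range from 1884 bases (EDEM2) to 7919 bases (SEL1L). The median log2 ratio of the 200 genes nearest in length was 0.32 for SEL1L, 0.24 for EDEM3 and 0.22 for EDEM1, and between -0.06 and 0.11 for the other members. The levels relative to SEL1L and the shares within the EDEM family given above were not adjusted for such differences. Nor were the overlaps of ratio bounds between members, such as that of SYVN1 and SEL1L. Relative to those medians, HERPUD1 had a log2 ratio of 2.14, SYVN1 1.42, SEL1L 0.92, EDEM1 0.90 and EDEM3 0.82. All 5 were still beyond 1.5-fold, although SEL1L, EDEM1 and EDEM3 were then below 2-fold. OS9 was at -0.23, and EDEM2, DERL1, DERL2 and DERL3 were between 0.16 and 0.37.

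**Figure D4:**
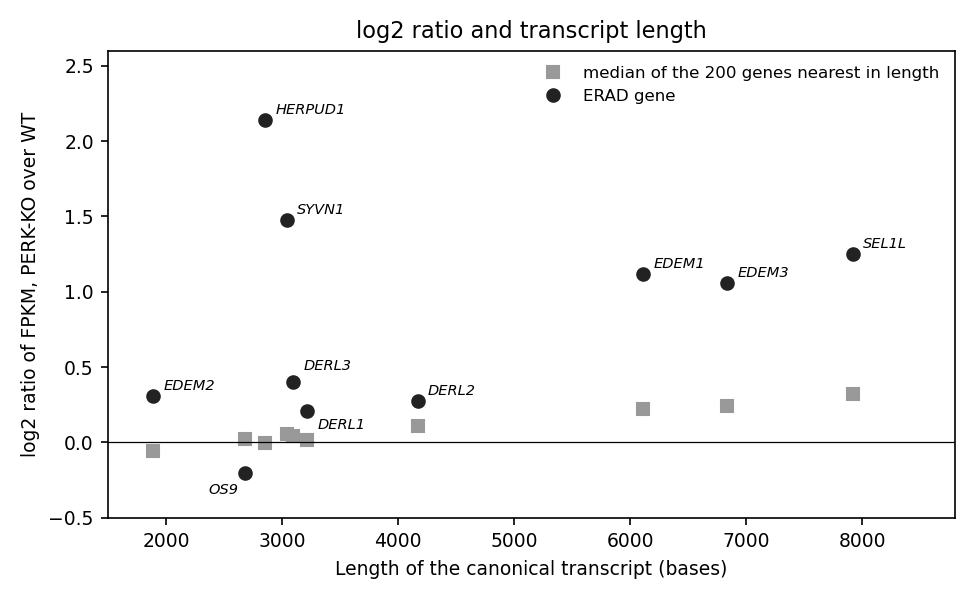
log2 ratio of FPKM (PERK-KO over WT) of each ERAD gene (circles) against the length of its canonical transcript in bases, with the median log2 ratio of the 200 genes nearest in length (squares). HERPUD1 and SYVN1 are at lengths where that median is near 0, whereas for SEL1L it is 0.32. Every gene but OS9 lies above the median at its length, the 5 genes with the largest ratios by the widest margins.

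The other genes of the route were taken from a list of 61 ERAD genes, grouped by role. All 61 passed the filter. Of these, 13 (21.3%, against 10.1% of all genes) were higher by over 1.5-fold and 0 were lower, with a median log2 ratio of 0.17. Relative to genes of similar length the count of higher genes was 6, against 6.44% of all genes, and the median log2 ratio was 0.08. On that scale 2 were lower, RNF145 and TRIM13, the latter named after its values had been seen. The genes named below that were then within 1.5-fold are MAN1A1, MAN1A2, DNAJC10, FAM8A1, UBE2J1, YOD1 and UBE4B. Among J proteins and redox partners, 4 of 7 were beyond 1.5-fold. SDF2L1, a partner of BiP cochaperones, had an FPKM of 64.0 in WT (59.6 to 68.4) and 176 in PERK-KO cells (168 to 183), a ratio of 2.74. DNAJB9 (ERdj4), a J protein that brings BiP to ERAD clients, had 7.84 (7.02 to 8.66) and 19.9 (18.5 to 21.3), a ratio of 2.54. TXNDC11 and DNAJC10 (ERdj5, a reductase) had ratios of 1.61 and 1.60, and DNAJB12 was lowest in that group at 0.969. The median log2 ratio of the group was 0.68, and relative to genes of similar length it was 0.27.

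Among the 8 lectin and glycan enzymes, 2 (25%, against 10.1% of all genes) were beyond 1.5-fold. The mannosidases MAN1A2 and MAN1A1 had ratios of 1.78 and 1.55, and MAN1C1 was lowest at 0.902. Of 12 partners of the SYVN1 complex, 4 (33.3%, against 10.1% of all genes) were beyond 1.5-fold. These were SELK, with a ratio of 1.60, the ubiquitin-conjugating enzyme UBE2J1 at 1.59, FAM8A1 at 1.51 and SELS, listed as VIMP, at 1.51. In contrast, UBE2J2, the related conjugating enzyme, had 51.5 (48.8 to 54.2) and 41.8 (39.4 to 44.2), a ratio of 0.812. The median log2 ratio of these partners was -0.09, and the highest of their ratios, 1.60, was below those of SYVN1 and SEL1L.

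Of 11 other ER ubiquitin ligases and their partners, 1 (9.09%, against 10.1% of all genes) was beyond the threshold. It was RNF5, at 2.19 (1.22 to 3.16) and 6.03 (4.33 to 7.72), a ratio of 2.75. The limits of RNF5 were wide, and RNF145 had the lowest ratio of this group at 0.682. Of 15 genes for p97 and its cofactors, 2 (13.3%, against 10.1% of all genes) were beyond 1.5-fold. They were the deubiquitinase YOD1 (1.83) and the ligase UBE4B (1.57), and UFD1L was lowest at 0.756. None of the 8 shuttle and holdase genes was beyond 1.5-fold, against 10.1% of all genes, with BAG6 highest at 1.36 and GET4 lowest at 0.729.

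For comparison, the 31 proteasome subunit genes listed had a median log2 ratio of -0.25. Of these, 0 were beyond 1.5-fold on the higher side and 3 on the lower side, against 10.1% and 7.54% of all genes. The 3 were PSMA2, PSMA7 and PSMD1, which are named after their values had been seen. The 31 genes have short transcripts, with a median of 1540 bases, and relative to genes of similar length their median was -0.12. Of 12 ER chaperone genes, 9 were beyond 1.5-fold on the higher side, against 10.1% of all genes. The median log2 ratio of the chaperone genes was 0.76, against 0.73 for the ERAD members, none of which had a ratio near that value. Relative to genes of similar length these medians were 0.85 and 0.59. These lists were compared by counts and medians only, and the differences between them were not tested.

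**Figure D5:**
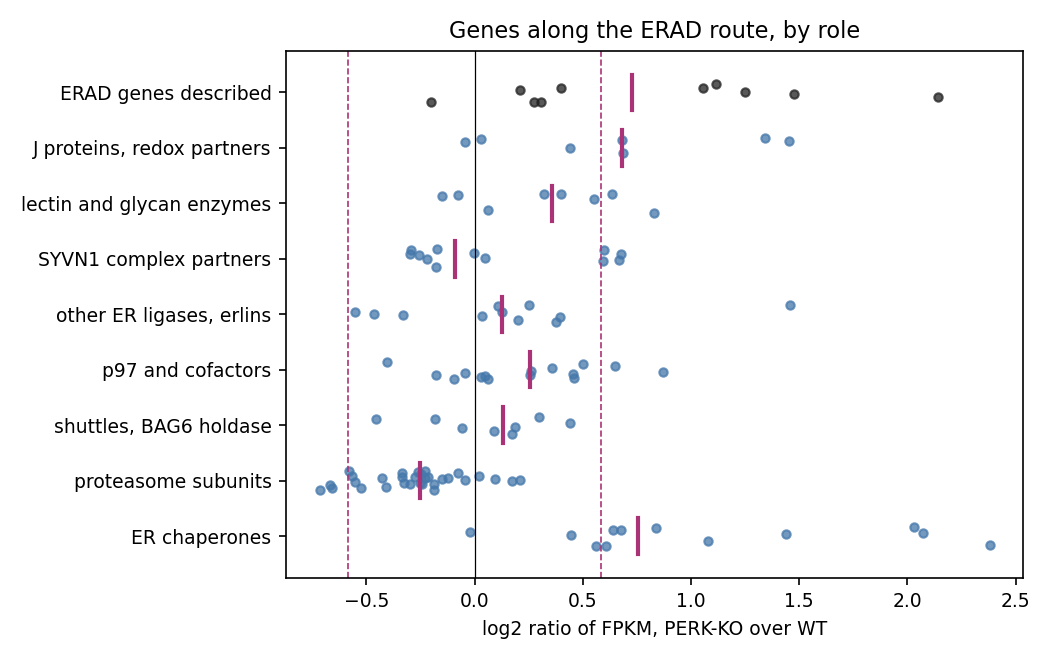
log2 ratio of FPKM (PERK-KO over WT) of each gene along the ERAD route, by role, with the 10 ERAD genes described in the top line, purple bars for the median of each list and dashed lines at 1.5-fold. Medians, without regard to transcript length, are 0.73 for the 10 genes, 0.68 for J proteins and redox partners, -0.09 for SYVN1 complex partners and -0.25 for proteasome subunits.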

How the data were processed

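The authors purified poly(A) mRNA from 1 WT and 1 PERK-KO sample and mapped the reads to GRCh37/hg19 with TopHat2 (2.0.13, per the labels). The deposited values are FPKM computed with Cufflinks (2.2.1), each gene carrying a confidence limit on either side. Read totals are not part of those tables. The half-widths of the limits of the members were 3.61% to 11.7% of the value. Read as 2 SD of a Poisson count, such widths would match 291 to 3066 fragments. The limits also hold the error of assigning fragments, so these numbers are not fragment counts.

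Ratios were PERK-KO over WT without a pseudocount, and a gene counted as beyond the threshold above 1.5-fold. Genes were kept where either sample reached an FPKM of 1. Genes at 0 in one sample, 155 of them, were kept in these counts. Bounds of a ratio are the lower limit in one sample over the upper limit in the other. Starts are given counting from 1. Transcript lengths came from GENCODE 44 on GRCh37, by symbol or older symbol, for 92.8% of genes that passed. Genes are named by a rule, namely all members, EIF2AK3, and per role list the highest and lowest ratio and any gene beyond 1.5-fold. The members and lists were chosen with earlier results of these data known. The calculations, made with Python 3.11.15, numpy 2.4.6, pandas 2.3.3 and matplotlib 3.10.9, were tested on simulated data. Alternatives to the filter, pseudocount, scaling, length, threshold and use of the limits are given in the closing section.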

Additional observations from a re-analysis of the deposited data

How the results depend on the processing

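All 11 alternatives to the calls kept 5 members beyond 1.5-fold on the higher side (or beyond 2-fold at that threshold) and 0 on the lower side. Of 80 recomputed member ratios, 77 stayed within the bounds of their limits and 0 changed direction. Part of these could not move, because a change of filter does not alter a ratio. Summing rows of one name also left every member ratio the same. The 3 that left their bounds were SEL1L, EDEM1 and EDEM3 with the median of genes of similar length subtracted. Their log2 ratios were then 0.92, 0.90 and 0.82. Over all settings the ratios of the 5 higher members were at least 1.76 and those of the other 5 at most 1.32. The median log2 ratio of the members, 0.73, was 0.65 with a pseudocount of 1 and 0.59 with length subtracted.

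The count of other ERAD genes beyond 1.5-fold, 13, depended on the rule. Of the 61 genes it was 6 with length subtracted, against 6.44% of all genes, and 3 at 2-fold, against 3.28%. When the lower bound of the ratio had to pass 1.5 it was 3, against 2.64%. The count on the lower side, 0 against 7.54% of all genes, was 1 after rescaling to a median log2 ratio of 0. With length subtracted it was 2, and the share of all genes on the lower side was not computed for these 2 settings. For the promoters, 1 mismatch gave 3 members with the ER stress element, 3 with its second form and 1 with the unfolded protein response element, and with 100 bases less upstream 0 held the ATF4 core. No paired analysis was possible because each genotype has 1 sample, and for the same reason no replicate could be left out. Relative to the value, limits were widest for EDEM2 among the members and for RNF5 among the other ERAD genes.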
